A study of Gossypium hirsutum with 17 samples.

Results

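The transcript profile of cotton seedlings raised on alkaline medium was compared with that of untreated seedlings. The members were taken by their labels, not by measured values, and were 5 of the 17 arrays of the series, namely 2 pH arrays and 3 control arrays. The plant was upland cotton, Gossypium hirsutum, and seedlings were taken 14 days after germination in every group. For the pH treatment, seedlings that had germinated for 4 days were moved to MS (Murashige and Skoog) medium at pH 11 and kept there for 10 days at 25 °C, and control seedlings grew under normal conditions with no treatment. The labels give no pH for the control medium, and whether pH 11 was held over the 10 days is not given in the sources used here. Of the other groups, ABA seedlings grew with 1 µM abscisic acid and mannitol seedlings with 200 mM mannitol, both for 10 days at pH 5.8, and these groups are used below to place the pH values. Cold seedlings spent 8 days before the cold and then 2 days at 4 °C, at pH 5.8. NaCl seedlings grew with 200 mM NaCl for 10 days at pH 5.8 and 25 °C. All 17 arrays, cold and NaCl included, entered the normalization and the estimate of the spread. The labels call the arrays of a group biological replicates, but the methods state that RNA of 3 biological replicates was pooled for each treatment, so the p-values measure the spread between arrays, which may be technical.

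Plant cells keep the cytosol close to neutral and the cell wall acid, and the wall acidity is built by proton pumps of the plasma membrane. Expansins, which loosen the wall, work in an acid wall, and uptake of nitrate is coupled to the entry of protons. Alkaline medium also lowers the solubility of iron, zinc and phosphate, and alkaline soil is one of the conditions that limit cotton.

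Each array (Affymetrix Cotton Genome Array) held 24132 probe sets, of which 103 were Affymetrix control probe sets and 24029 were tested. Signals are given as log2 of the deposited intensity after quantile normalization of the 17 arrays, and their median was 6.04. Differences are pH minus control on this log2 scale, with the standard error (SE) and the Benjamini-Hochberg adjusted p-value of limma. A probe set was called up-regulated or down-regulated where the fold change was at least 2 and the adjusted p-value at most 0.05. The number of arrays limits the precision. Before normalization the groups lay on different scales. The trimmed mean intensity was 118 to 120 on the control arrays and 500.1 on both pH arrays, and 5.43% to 5.61% of control signals but 1.33% to 1.61% of pH signals were under 1. Scale and treatment cannot be told apart for control and pH. ABA and mannitol arrays had a trimmed mean of 500.1 as well, so these groups share the scale of the pH arrays. The 3′ to 5′ log2 ratio of the G. hirsutum actin control probe sets, a sign of RNA integrity, was 2.78 to 3.05 on control and 4.45 to 4.46 on pH arrays. For the G. raimondii actin probe sets the groups overlapped, with 1.14 to 2.39 on control and 2.12 to 3.54 on pH arrays. The part of these ratios in the results was not tested. After normalization the 2 pH arrays correlated with each other at r = 0.951 over probe sets and with control arrays at 0.822 to 0.857. Rubisco activase RCA1, a marker of green tissue, lay at 13.12 to 13.31 in control seedlings, while the seed storage transcripts LegA and vicB had means of 1.07 and −0.30 in control. Other members of the list of storage and late embryogenesis proteins were higher. Of its 8 annotated probe sets, 2 had a mean above the median signal in control or pH. The dehydrin ERD10, from the study's tables, gave 11.19 to 11.60 in control.

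The pH treatment was accompanied by changes in 5318 of 24029 probe sets (22.1%). Of these, 2807 were up-regulated (11.7%) and 2511 were down-regulated (10.4%). The fold change was over 10 for 394 up-regulated and 292 down-regulated probe sets. Another 1416 up-regulated and 1300 down-regulated probe sets changed by 3-fold to 10-fold. Both pH arrays lay above all 3 control arrays in 7366 of all probe sets tested (30.7%) and below them in 7371 (30.7%), among them 2806 of the up-regulated and 2504 of the down-regulated probe sets. The median difference over all probe sets tested was −0.03. Without pH 1, 1629 probe sets were up-regulated and 1516 were down-regulated, and without pH 2 these counts were 1488 and 1217. Probe sets designed on G. hirsutum sequences were up-regulated more often than down-regulated, with 2389 against 1472 of 16804. Probe sets designed on sequences of the diploid G. raimondii, by contrast, numbered 400 up-regulated and 1027 down-regulated of 7068. Of the 6008 probe sets with the lowest mean signal 10.7% were called, and at higher signal the share was 24.0% to 28.3%.

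**Figure D1:**
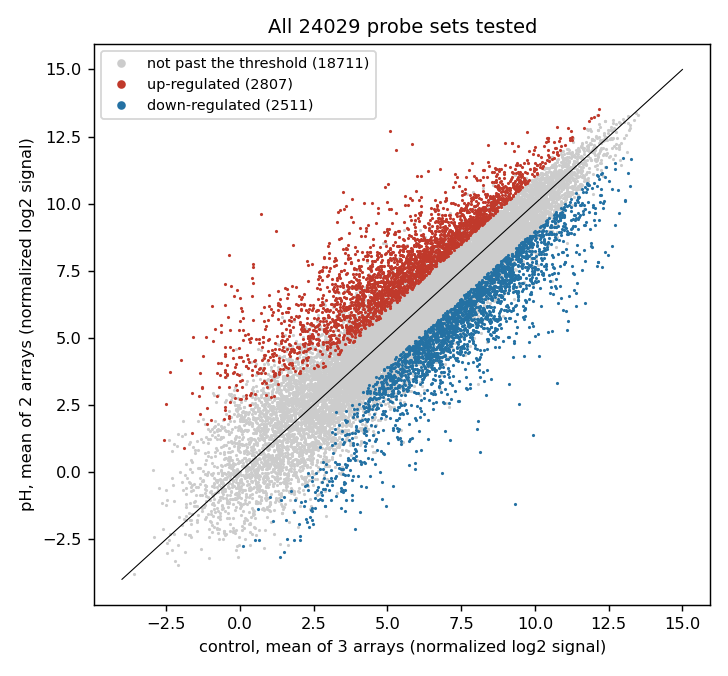
Each point is 1 of the 24029 probe sets, with the mean normalized log2 signal of the 3 control arrays on the horizontal axis and that of the 2 pH arrays on the vertical axis, and the line marks equal signals. The 2807 up-regulated probe sets lie above the line and the 2511 down-regulated probe sets below it.

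A name could be given to 848 probe sets, and the names came from different sources that are counted apart. The array annotation named 324 probe sets without regard to their values, of which 39 were up-regulated (12.0%) and 46 were down-regulated (14.2%). The tables of the study named another 524, of which 263 were up-regulated (50.2%) and 30 down-regulated (5.73%). These were picked by the study on the same arrays, part of them from its list of transcripts induced by ABA. Their directions are therefore not independent evidence, and counts over them are descriptions. Rises counted over these names stand beside this 50.2%, not beside the 11.7% over all probe sets. For 52 genes the annotation had more than 1 probe set. In 22 of them at least 1 probe set was called, in 7 all were called, and in 0 were probe sets called in opposite directions. Values are listed below in the order control 1, 2 and 3, then pH 1 and 2.

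Several transcripts for proteins that loosen and build the growing cell wall were lower in pH seedlings. Of 7 alpha-expansin probe sets named by the annotation, 5 were down-regulated and 0 were up-regulated (median difference −2.65, against −0.03 over all probe sets and 10.4% down-regulated in all). The 7 probe sets belonged to 4 genes, and EXPA3D and EXPA4 each had 2 of the called ones. The expansin transcript EXPA3D (GhiAffx.40054.1.S1_at, LOC107904848) gave 11.88, 12.26 and 11.57 in control and 8.52 and 8.58 in pH. The groups did not overlap, and the signal fell by 3.35 (SE 0.37, adjusted p = 7.35e-05), which is 10.2-fold. EXPA4 (Ghi.704.1.S1_at, LOC107891056) gave 8.60, 8.99 and 7.87 in control and 5.67 and 5.46 in pH, a fall of 7.58-fold (adjusted p = 6.38e-04). Another EXPA4 probe set (Ghi.704.1.A1_s_at) fell by 6.38-fold, while a further probe set of the same gene (GhiAffx.26845.1.S1_at) gave 7.43, 7.27 and 6.42 against 7.18 and 7.39, groups that overlapped. Without pH 2, 3 of the 7 probe sets were called. EXPA3D (GhiAffx.40054.1.S1_at) was about as low in mannitol seedlings, with a mean of 8.62 against 8.55 in pH (adjusted p = 0.991). For its other probe set pH minus mannitol was 0.04. For the called EXPA4 probe sets it was −1.22 and −1.66, which did not pass. The pH minus ABA difference was −1.41 for GhiAffx.40054.1.S1_at and −2.36 and −2.19 for EXPA4, calls lost without pH 1 or pH 2. Whether alkalinity itself lowered these transcripts was not tested.

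Fasciclin-like arabinogalactan proteins (FLA), glycoproteins anchored at the cell surface, fell in 7 of 19 probe sets and rose in 0, with a median difference of −1.07. The 19 probe sets belonged to 12 genes, and FLA12 and FLA13 each had 2 of the called ones. Without pH 1, and likewise without pH 2, 4 of the 19 were down-regulated. FLA13 (Ghi.9666.1.S1_at) had the values 8.70, 9.34 and 8.37 in control and 6.10 and 5.41 in pH. Every pH value was over 2 units below the lowest control value, and the fall was 8.29-fold (SE 0.40, adjusted p = 2.48e-04). FLA12 (Ghi.4140.1.S1_s_at) fell by 5.42-fold (adjusted p = 0.00191) and FLA15 (GhiAffx.16299.1.S1_s_at) by 5.34-fold (adjusted p = 9.85e-04). FLA4 fell by 3.90-fold (adjusted p = 0.00968), a call that was lost without pH 1 or without pH 2 (adjusted p 0.0568 to 0.0647). FLA2 fell by 4.83-fold, a call lost without pH 2 (adjusted p = 0.0875). FLA and lipid transfer transcripts are also known from developing cotton fibers, and 1 of 2 lipid transfer probe sets was down-regulated in these seedlings.

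In the sugar supply of the wall the pH arrays disagreed in size. Sus1 (Ghi.8665.1.S1_s_at), a sucrose synthase, which splits sucrose and yields UDP-glucose, gave 12.22, 12.49 and 11.97 in control and 11.34 and 9.31 in pH. Both pH values were below every control value, but pH 2 was lower than pH 1 by far. The fall was 3.74-fold (adjusted p = 0.00657), and without pH 2 it was 0.89 log2 units with adjusted p = 0.0840. CslD1 (Ghi.3933.1.S1_s_at), a cellulose synthase-like protein, gave 5.69, 5.79 and 4.47 in control and 3.95 and −0.04 in pH. Its fall of 3.36 log2 units (adjusted p = 0.0116) was 1.36 without pH 2, with adjusted p = 0.169, and 5.35 without pH 1. GAE2 (GhiAffx.21092.1.S1_s_at), which makes UDP-galacturonic acid for pectin, was up-regulated by 2.78-fold (adjusted p = 0.0117), a call lost without pH 1 or pH 2 (adjusted p 0.0583 to 0.0811). Among the 12 probe sets for UDP-sugar enzymes and sucrose cleavage, 1 was up-regulated and 3 were down-regulated, and without pH 2 none of these was called. Without control 2, 1 of the 3 falls was called. Xyloglucan-modifying enzymes and glucanases lay below 0 in all 7 probe sets (median −0.89), of which 1 passed the test. Tubulins and actins had a median of −0.71, with 1 of 13 probe sets down-regulated (7.69%, against 10.4% over all probe sets). Neither call was made without pH 2, nor the latter without control 2.

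**Figure D2:**
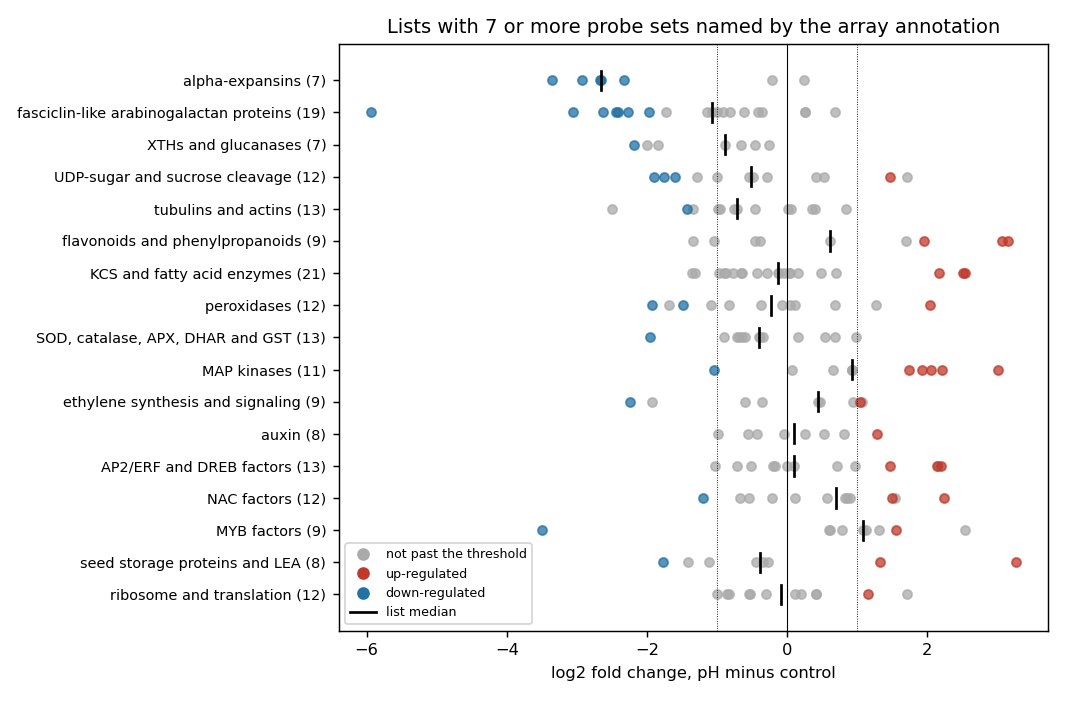
Points are the pH minus control log2 differences of the probe sets named by the array annotation, for each gene list with at least 7 probe sets, with called probe sets coloured by direction and a black bar at the list median. The alpha-expansin list lies lowest, with a median of −2.65, and the MAP kinase list has a median of 0.93.

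Pectinesterase 3 (Gra.1483.2.S1_at), named in the study's tables and an enzyme that removes methyl groups from pectin, had 9.84, 10.63 and 9.60 in control and 7.15 and 7.29 in pH. The groups were apart by more than 2 units, and the fall was 6.98-fold (adjusted p = 0.00554). The study designed qRT-PCR primers for this transcript and for others described below. Primer pairs are shown for 4 of them, pectinesterase 3, nitrate transporter 1.4, the thiamine biosynthesis protein and HSP20. The array signals come from the probes of the array, not from these primers. Whether primers and probes bind the same transcript was not tested.
pectinesterase 3 forward: cgaacacaattacttcaaga
pectinesterase 3 reverse: ctcgtcaatagtctccaa
nitrate transporter 1.4 forward: ttatggaatctgctctgt
nitrate transporter 1.4 reverse: cctcatataacaattcaacac
thiamine biosynthesis protein forward: cagcctgagtttgttcta
thiamine biosynthesis protein reverse: gttcacattcaatccatcaa
HSP20 forward: tttgctaacaccagaatc
HSP20 reverse: catcttcaatctccactt

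Light-responsive B-box and CONSTANS-like regulators were lower in pH seedlings. STH (Ghi.2046.1.S1_s_at, salt tolerance homolog), a B-box protein that acts in light signaling in Arabidopsis, gave 12.15, 12.00 and 12.28 in control and 7.54 and 8.13 in pH. The fall was 19.8-fold (SE 0.47, adjusted p = 7.35e-05), and no pH value came within 3 units of a control value. COL5-D (LOC107906795), a CONSTANS-like factor, fell in both of its probe sets. Ghi.10472.2.A1_s_at gave 10.03, 10.08 and 10.24 against 7.52 and 7.58, a fall of 5.93-fold (adjusted p = 2.76e-04). Ghi.10472.2.S1_s_at fell by 6.67-fold (adjusted p = 7.73e-04). A further B-box transcript (Ghi.1165.1.A1_s_at) stood between 9.20 and 9.33 in control and at 5.07 and 6.98 in pH (adjusted p = 0.00215). The 4 probe sets of this list, 2 from the annotation and 2 from the study's tables, were down-regulated, and each was so without pH 1 and without pH 2 as well.

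LHY (LATE ELONGATED HYPOCOTYL, Ghi.1410.1.A1_s_at), a morning-expressed repressor of the clock, stood at 11.09, 11.14 and 11.07 in control and at 5.27 and 5.32 in pH. The arrays within each of these groups lay close together, and the signal fell by 5.81 (SE 1.22, adjusted p = 0.00432), or 56.0-fold. The SE draws on the spread within all groups, and LHY was 5.42 on NaCl 2 but 11.51 and 10.87 on NaCl 1 and NaCl 3. The hour of harvest is not given in the sources used here. Of 5 clock probe sets named in the study's tables, 1 was up-regulated and 1 was down-regulated.

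Photosynthesis transcripts moved in both directions. RCA1 (Ghi.1138.1.S1_at), the activase of Rubisco, was 13.31, 13.12 and 13.31 in control and 11.65 and 11.64 in pH. It fell by 3.04-fold (adjusted p = 0.00677). NDF1 (Ghi.1481.1.S1_at), a factor of the chloroplast NDH complex for cyclic electron flow, rose from 5.95, 5.58 and 6.25 to 9.14 and 9.99, which is 12.4-fold (adjusted p = 2.33e-04). CRR3 (Ghi.1545.1.S1_at), another NDH factor, rose by 7.79-fold (adjusted p = 0.00507), a call lost without pH 2 (adjusted p = 0.0646). NDF1 and CRR3 were named by the study's tables, in which 3 of 3 such probe sets were up-regulated, and without either pH array the count was 2 of 3.

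Transcripts of a nitrate transporter and of nitrate reductase were lower in pH seedlings. Nitrate transporter 1.4 (NRT1.4, Gra.2247.1.S1_at), known in Arabidopsis for nitrate storage in the petiole, had 9.14, 9.53 and 9.42 in control and 5.32 and 5.03 in pH. The groups lay apart by nearly 4 log2 units, and the fall was 18.2-fold (SE 0.79, adjusted p = 0.00231). The other NRT1.4 probe set (Gra.2247.2.A1_at) fell by 16.5-fold (adjusted p = 0.00156). Nitrate reductase (Gra.1111.1.A1_at), which turns nitrate into nitrite, had 6.56, 6.45 and 6.05 in control and 2.53 and 3.61 in pH. Its fall was 9.72-fold (adjusted p = 2.18e-04). The transporter NRT1.5 (Ghi.3135.1.S1_at), which loads nitrate into the root xylem in Arabidopsis, went the other way, from 4.35, 5.08 and 3.80 to 6.54 and 7.90. It was up-regulated by 7.02-fold (adjusted p = 0.00863), and this call was lost without pH 2 (adjusted p = 0.117). The 1 nitrate probe set named by the annotation differed by −0.18 and was not called. Of the 7 nitrate probe sets in the study's tables, 2 were up-regulated and 3 down-regulated. The 3 falls were called without either pH array. Of the 2 rises, 1 was called without any 1 control array, any 1 mannitol array, ABA 2 or cold 1. Fewer than 2 were called without pH 1 or without pH 2.

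For potassium, sodium and metal transport, 1 of 4 probe sets named by the annotation rose and 0 fell. Of those named by the study's tables, 5 of 8 rose and 0 fell, with 2 called without pH 1 and 1 without pH 2. The protein kinase SOS2 (GhiAffx.7102.1.S1_at, LOC107962610), which activates sodium export at the plasma membrane, gave 8.40, 7.98 and 7.93 in control and 9.51 and 9.18 in pH. It was up-regulated by 2.36-fold (adjusted p = 0.00559), a call lost without pH 1 (adjusted p = 0.0621). NHX1 (Ghi.8122.1.S1_s_at), the vacuolar sodium/proton exchanger, was 1.64 times higher, below the fold threshold, with adjusted p = 0.0371. Of 5 proton pump probe sets named by the annotation, 0 were called, and their median difference was 0.34. A further 1, named by the study's tables as a proton-transporting ATP synthase, was up-regulated by 2.22 log2 units (adjusted p = 0.00153). PEPC1 (Ghi.8053.1.S1_s_at), a phosphoenolpyruvate carboxylase that feeds organic acid synthesis, fell by 2.08-fold (adjusted p = 0.00753). Its call was lost without pH 2 (adjusted p = 0.0715) and without control 1, where the fold change was under 2. Of 5 probe sets in the study's tables that the organic acid list took by name, 3 rose and 1 fell. The fall was that of isopropylmalate dehydratase (Gra.3008.1.A1_at), an enzyme of leucine synthesis described below.

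Some phenylpropanoid and flavonoid enzymes were up-regulated, while others were lower in pH seedlings. DFR (Ghi.9795.1.S1_s_at, LOC107957957), dihydroflavonol reductase of anthocyanin and proanthocyanidin synthesis, rose from 6.70, 7.26 and 6.93 to 9.84 and 10.39. The rise was 8.89-fold (SE 0.54, adjusted p = 0.00137), and the groups were apart by more than 2 units. CHS6 (Ghi.2516.1.S1_s_at), a chalcone synthase, gave 0.46, 2.73 and 0.16 against 4.07 and 4.30 (adjusted p = 0.0170), and its call was lost without control 1, control 3, pH 1 or pH 2 (adjusted p 0.0546 to 0.105). PAL1 (Gra.2239.1.S1_s_at), a phenylalanine ammonia-lyase, which starts the pathway, gave 6.74, 6.42 and 5.97 in control and 8.93 and 9.60 in pH. It rose by 7.43-fold (adjusted p = 2.48e-04), and PAL2 (Ghi.4039.1.A1_s_at) rose by 8.13-fold (adjusted p = 0.00277). In all, 3 of the 9 probe sets named by the annotation rose and 0 fell (median 0.62). Without control 1, control 3, pH 1 or pH 2 the count was 1. Of these 9 annotated probe sets, 4 lay below 0. CHS2, another chalcone synthase, had 4 probe sets with differences from −1.34 to 1.96, of which 1 was up-regulated. Of the 5 probe sets from the study's tables, 2 rose and 2 fell, with a median of −1.57 and a range from −3.23 to 3.02. For terpenoid enzymes the study's tables held 8 probe sets, of which 5 were up-regulated and 0 down-regulated.

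WRKY factors, regulators of defense and stress genes, were up-regulated in 3 of 3 probe sets named by the annotation. WRKY71 (Ghi.9192.1.S1_s_at, LOC107906829) rose from 5.67, 5.56 and 5.88 to 9.89 and 10.02, which is 19.1-fold (SE 0.95, adjusted p = 0.00625). The groups did not overlap, and the call was lost without pH 2 (adjusted p = 0.0503). WRKY15 (LOC107931629) rose in both probe sets, by 2.90-fold (Ghi.3815.1.A1_at, adjusted p = 2.74e-04) and by 2.29-fold (Ghi.3815.1.S1_at, adjusted p = 0.00735), the latter lost without pH 1 (adjusted p = 0.0838). Of 30 WRKY probe sets in the study's tables, 16 rose (53.3%) and 0 fell (median 1.55). This share of rises was near the 50.2% over all 524 of these names. The rises numbered 11 without pH 1 and 7 without pH 2. WRKY33 (Ghi.9240.1.S1_s_at), a regulator of defense against fungi in Arabidopsis, was at 7.88, 7.89 and 7.81 in control and at 11.43 and 11.60 in pH. It was up-regulated by 12.5-fold (adjusted p = 3.26e-04).

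Among AP2/ERF and DREB factors, which mediate ethylene, cold and drought responses, 3 of 13 annotated probe sets rose and 0 fell (median 0.11). The share of rises was 23.1%, against 11.7% over all probe sets. Of the 28 probe sets named by the study, 8 rose (28.6%), a smaller share than the 50.2% over all 524 of these names. Their rises numbered 5 without pH 1 and 1 without pH 2. Without control 2, control 3, pH 1 or pH 2 only 1 of the 13 was called. CBF17 (GhiAffx.33925.1.S1_at), of the family that responds to cold, rose from 5.67, 5.47 and 4.78 to 7.04 and 7.87, a 4.42-fold change (adjusted p = 0.00273). The gene's other, brighter probe set had means of 12.62 in control and 12.72 in pH and did not pass. The zinc finger protein Di19-2 (Ghi.7222.1.S1_at), of a drought-induced family, rose by 3.97-fold (adjusted p = 5.57e-04). Among NAC factors, 2 of 12 rose (16.7%) and 1 fell (8.33%), shares near those over all probe sets, 11.7% and 10.4%. NAC5 (Ghi.6538.1.S1_at) rose by 4.72-fold and NAC10 (Ghi.3692.1.A1_at) by 2.84-fold, and both calls were lost without control 2, pH 1 or pH 2 (adjusted p 0.0519 to 0.175). MYB factors, a large family that regulates development and secondary metabolism, rose in 1 and fell in 1 of 9 probe sets. These shares, 11.1% each, were also near those over all probe sets. GHMYB36 (Ghi.8080.1.S1_at) rose by 2.94-fold (adjusted p = 0.0137), a call lost without pH 2 (adjusted p = 0.127). GHMYB38 (Ghi.6271.2.S1_s_at, LOC107932200) stood at 12.09, 11.56 and 12.06 in control and at 8.25 and 8.56 in pH. It fell by 11.3-fold (SE 0.50, adjusted p = 4.41e-04). The gene's other probe set lay the other way, with means of −0.84 in control and 1.70 in pH, a difference of 2.54 that did not pass (adjusted p = 0.0765). Scarecrow (Gra.1312.2.S1_s_at), a factor that patterns the root in Arabidopsis, fell by 5.30-fold, a call lost without pH 1 (adjusted p = 0.0939).

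**Figure D3:**
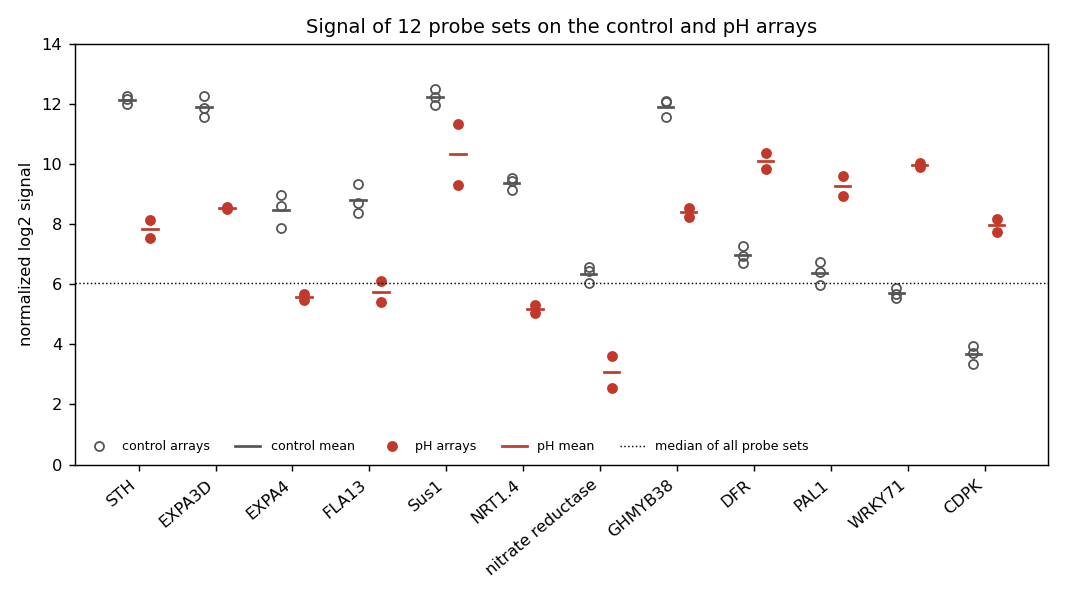
Normalized log2 signals of 12 described probe sets on the 3 control arrays (open circles) and the 2 pH arrays (filled), with a short line for each group mean and a dotted line at the median of all probe sets, 6.04. STH and EXPA3D lie lower on both pH arrays than on every control array, and DFR and CDPK lie higher.

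Of 11 MAP kinase probe sets named by the annotation, 5 were up-regulated and 1 was down-regulated (median 0.93). The 5 rises were all in probe sets of 1 gene, MPK3, a kinase activated by stress and elicitors in Arabidopsis, which had 6 probe sets on the array. The probe set Ghi.7954.1.S1_s_at (LOC107959059) gave 8.31, 8.36 and 8.04 in control and 10.81 and 11.68 in pH. The rise was 8.05-fold (SE 0.55, adjusted p = 0.00187), and the groups were apart by more than 2 units. The 5 rises numbered 2 without pH 1 and 3 without pH 2 or any 1 control array. CBL1 (Ghi.9163.2.S1_at), a calcineurin B-like calcium sensor, rose from 5.46, 4.61 and 4.79 to 7.35 and 7.09 (4.81-fold, adjusted p = 0.00203), the 1 called of 6 annotated probe sets for calcium signaling, while the gene's other probe set differed by 0.89 and did not pass. Of the calcium probe sets named by the study's tables, 7 of 9 rose and 0 fell, with 3 called without pH 1 and 4 without pH 2. A calcium-dependent protein kinase from the study's tables (CDPK, Ghi.9336.3.S1_at) was at 3.36, 3.95 and 3.70 in control and at 8.19 and 7.74 in pH. This 19.6-fold rise had an SE of 0.29 and an adjusted p of 2.16e-06. RBOHD (Ghi.9151.2.S1_at), an NADPH oxidase that makes reactive oxygen in signaling, rose by 6.02-fold (adjusted p = 0.00301).

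ACO1 (Ghi.6953.1.S1_s_at, LOC107905899), the oxidase of the last step of ethylene synthesis, fell from 11.24, 11.23 and 10.82 to 8.73 and 8.99. The fall was 4.71-fold (SE 0.32, adjusted p = 4.21e-04). ACS1 (GhiAffx.56172.1.S1_s_at), the synthase of the step before it, rose by 2.07-fold (adjusted p = 0.0166), just past the fold threshold, and its call was lost without control 1, pH 1 or pH 2 (adjusted p 0.0565 to 0.105). These were the 2 called of 9 annotated ethylene probe sets, 11.1% in each direction, against 11.7% up-regulated and 10.4% down-regulated over all probe sets. The study's tables named 2 more, of which 1, an ACC oxidase with a mean of −1.58 in control and 5.03 in pH, rose (adjusted p = 2.47e-04). GAI2 (GhiAffx.39939.1.A1_s_at), a DELLA repressor of gibberellin responses, fell by 2.15-fold (adjusted p = 0.00364). GH3.17 (Ghi.4795.1.A1_s_at), which conjugates auxin to amino acids in Arabidopsis, was near the floor in control at −1.26, 0.50 and 0.87 and gave 6.29 and 5.95 in pH. It was up-regulated by 67.6-fold (adjusted p = 6.38e-04), a fold that rests on control signals under 1 log2 unit. ABI1 (Ghi.3008.1.S1_at), a protein phosphatase 2C that represses abscisic acid signaling, rose from 3.36, 3.37 and 3.82 to 6.21 and 6.31 (6.69-fold, adjusted p = 8.51e-04). Of 13 probe sets of this pathway in the study's tables, 7 rose and 0 fell. The share of rises, 53.8%, was near the 50.2% over all 524 of these names. Fewer were called without pH 1 or without pH 2.

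Lipid and redox enzymes gave mixed results, in part between probe sets of the same gene. KCS38 (LOC107925445), a 3-ketoacyl-CoA synthase that elongates very long fatty acids, rose by 5.81-fold and 5.71-fold in the probe sets GhiAffx.2173.1.A1_a_at and GhiAffx.2173.2.S1_at (adjusted p = 6.08e-04 and 5.70e-04). In the probe sets Ghi.9531.1.S1_s_at and Ghi.9938.1.S1_x_at of the same gene the differences were −0.43 and −0.89, neither of which passed. FatB1 (LOC107932873), a thioesterase that releases saturated fatty acids, rose by 4.52-fold in GhiAffx.7633.1.S1_s_at (adjusted p = 4.46e-04), while Ghi.8637.1.S1_s_at differed by −0.64 and did not pass. In all, 3 of 21 such probe sets were up-regulated (14.3%, against 11.7% over all probe sets), and 0 were down-regulated. SMT2-1 (Ghi.7404.1.S1_at), a sterol methyltransferase, fell by 2.27-fold, a call lost without pH 1 (adjusted p = 0.0832). Of 12 peroxidases, 1 rose (8.33%) and 2 fell (16.7%), against 11.7% and 10.4% over all probe sets. The peroxidase pod10 rose by 4.14-fold, a call lost without pH 1 (adjusted p = 0.0925). POX10 fell by 3.82-fold, a call lost without control 1, control 2, pH 1 or pH 2 (adjusted p 0.0633 to 0.135). DHAR1 (Ghi.5065.1.S1_s_at), which regenerates ascorbate, fell by 3.88-fold (adjusted p = 0.0130), a call lost without pH 1 or pH 2. It was the 1 called of 13 probe sets for antioxidant enzymes (7.69% down-regulated, against 10.4% over all probe sets).

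Starch breakdown and thiamine synthesis held some of the largest rises among named transcripts. Alpha-glucan phosphorylase H (Ghi.10692.1.S1_s_at), which cuts glucose units from glucans, was 5.29, 4.21 and 5.78 in control and 12.64 and 12.78 in pH, a 196-fold rise (SE 1.13, adjusted p = 5.25e-04). The thiamine biosynthesis protein whose primers are given above (Ghi.10424.1.S1_s_at) was 5.48, 3.79 and 5.81 in control and 10.51 and 10.93 in pH, and the thiazole biosynthetic enzyme (Gra.70.1.S1_s_at) 5.41, 3.42 and 5.93 and then 10.33 and 10.91. In each of these transcripts control 2 was the lowest control array, and the pH arrays lay more than 4 units above the highest. Both thiamine transcripts rose by 51.9-fold (adjusted p = 5.74e-05 and 1.09e-04). Up-regulation was called in 10 of 13 starch and 4 of 4 thiamine probe sets named by the study's tables. The heat shock protein HSP20 (Ghi.9308.1.S1_at), a small chaperone, showed the reverse, with 10.21, 7.83 and 9.79 in control and 4.61 and 5.18 in pH. It fell by 20.8-fold (adjusted p = 0.00201), and control 2 was again the lowest control array. ADH1 (Ghi.8046.1.S1_at), an alcohol dehydrogenase, rose by 3.40-fold (adjusted p = 0.00289).

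Further large changes were found in transcripts of general metabolism. Elongation factor 1 beta (Gra.610.2.A1_at), of protein synthesis, rose from 4.31, 2.34 and 3.82 to 10.57 and 10.29 (123-fold, adjusted p = 5.09e-04). Ceramide glucosyltransferase (Ghi.7915.4.S1_x_at), which makes glucosylceramide, rose from −0.36, 2.27 and 3.50 to 8.89 and 8.06 (102-fold, adjusted p = 3.98e-04), with control arrays that spread over nearly 4 units. Its probes may bind related transcripts, as the suffix of the probe set states. Isopropylmalate dehydratase (Gra.3008.1.A1_at), of leucine synthesis, fell from 7.11, 6.85 and 7.15 to 3.66 ± 0.70 (SD, n = 2) in pH (10.4-fold, limma adjusted p = 4.37e-05). A glucosyltransferase induced by salicylate (Ghi.9820.2.S1_s_at) fell by 9.47-fold (adjusted p = 0.0272), a call lost without control 1, control 3, pH 1 or pH 2 (adjusted p 0.0734 to 0.128). The seed storage transcript LegB (GhiAffx.3197.1.A1_at) rose from 1.90, 3.34 and 1.58 to 5.35 and 5.75 (adjusted p = 0.00317), still below the median signal, while the gene's other probe set, with means of −0.42 and −1.52, differed by −1.11 and did not pass. Of 8 probe sets for storage and late embryogenesis proteins, 2 rose (25.0%) and 1 fell (12.5%), against 11.7% and 10.4% over all probe sets. Of the 2 rises, 1 was called without any 1 control array or without mannitol 3. The fall was not called without control 1 or control 2. Fewer rises and no fall were called without either pH array.

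The pH arrays were also set directly against the ABA and mannitol arrays, which share their deposited scale. Between pH and ABA, 966 probe sets were called (4.02%), 489 higher (2.04%) and 477 lower (1.99%) in pH. Between pH and mannitol, 135 were called (0.562%), 53 higher (0.221%) and 82 lower (0.341%) in pH. The pH arrays correlated with mannitol arrays at 0.936 to 0.943 and with ABA arrays at 0.915 to 0.929, against 0.836 to 0.849 with cold and 0.772 to 0.852 with NaCl arrays, which lie on other deposited scales. The comparisons of the 3 stresses with control share the control arrays, so the direct contrasts are given here. Without pH 2 the pH and ABA groups differed in 245 probe sets and without pH 1 in 324. Without ABA 1 the count was 369, without ABA 2 it was 493, and without NaCl 2 it was 1618. For pH and mannitol the count was 66 without pH 2, 56, 44 and 43 without mannitol 1, 2 and 3, and 361 without NaCl 2.

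**Figure D4:**
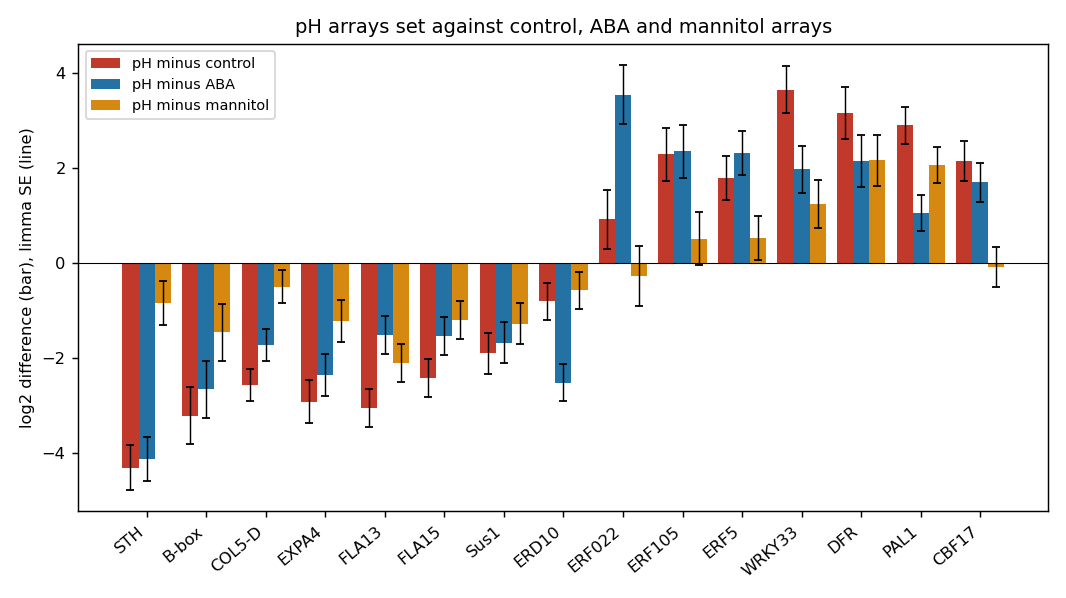
The pH minus control, pH minus ABA and pH minus mannitol log2 differences of 15 described probe sets, drawn as bars from 0 with lines of 1 limma SE. STH lies low against control and ABA, at −4.31 and −4.12, and at −0.85 against mannitol.

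STH was lower in pH than in ABA seedlings by 4.12 log2 units (adjusted p = 9.00e-04) and lay 0.85 units below mannitol (adjusted p = 0.629). The dehydrin ERD10 (Ghi.10639.1.S1_s_at), a protein of drying tissue, gave 11.19, 11.42 and 11.60 in control and 10.67 and 10.52 in pH, a difference that did not pass (adjusted p = 0.148), and was 2.52 units lower in pH than in ABA (adjusted p = 0.00410). These pH to ABA calls were kept without any 1 array. The transcription factor ERF022 (Ghi.9749.1.S1_s_at) differed from control by 0.92 (adjusted p = 0.310) and was 3.54 units higher in pH than in ABA (adjusted p = 0.00801). CAF1-11 (Ghi.8610.1.S1_s_at), of the complex that shortens poly(A) tails, was 2.83 units above control (adjusted p = 0.00174) and 2.85 above ABA (adjusted p = 0.00848). A plastid fibrillin (Gra.2678.1.A1_at), which binds lipids, was 3.60 above control and 2.59 above ABA (adjusted p = 0.00890). Without pH 2 the calls of ERF022, CAF1-11 and the fibrillin against ABA were lost (adjusted p 0.0984 to 0.103). CDPK was 1.89 units above ABA (adjusted p = 0.00420), a call lost without pH 1 (adjusted p = 0.0510).

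Against mannitol few described transcripts were called. PAL1 was 2.06 log2 units higher in pH (adjusted p = 0.0297), and FLA13 was 2.11 units lower (adjusted p = 0.0355). RAP2-12 (Ghi.9124.3.A1_at), an ethylene response factor of oxygen sensing in Arabidopsis, was 1.42 units lower (adjusted p = 0.0291). A transcript like SEX4 (Ghi.8745.1.A1_at), a phosphatase of starch breakdown in Arabidopsis, was 2.03 units lower in pH than in mannitol (adjusted p = 0.0231) and 1.61 units lower than in ABA (adjusted p = 0.0242), and it did not pass against control. Each of these calls against mannitol was lost without pH 1 and without any 1 mannitol array, those of PAL1, FLA13 and RAP2-12 also without pH 2, and that of FLA13 also without control 1, cold 2 or any 1 ABA array (adjusted p 0.0515 to 0.313 over these calls). The SEX4-like call against ABA was lost without ABA 1, ABA 2 or pH 1 (adjusted p 0.0770 to 0.233).

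Some probe sets on the pH arrays lay beyond all 15 other arrays of the series. Both pH arrays were above all others in 985 probe sets (4.10%) and below all others in 692 (2.88%). The gap to the nearest other array exceeded 1 log2 unit in 34 and 53 of them, 2 units in 7 and 11, and 5 units in 1 and 1. The last were GhiAffx.3966.1.S1_at and Ghi.5768.1.S1_s_at, neither of which had a gene name. GhiAffx.3966.1.S1_at gave 9.68 and 9.56 in pH, 1.09, −0.47 and 1.55 in control, and −0.68 to 3.76 over the 15 other arrays. It was higher in pH than in control (adjusted p = 1.27e-04), ABA (adjusted p = 0.00182) and mannitol (adjusted p = 8.64e-04). Ghi.5768.1.S1_s_at was at −1.49 and −0.91 in pH and at 7.74 to 11.44 on the 15 other arrays. It was lower in pH than in control (adjusted p = 1.99e-07), ABA (adjusted p = 1.97e-08) and mannitol (adjusted p = 2.38e-08). The low side of both probe sets lay near the floor of the signals, and no detection calls were used, so the sizes of these differences and gaps are not given as folds. These differences from ABA and mannitol, groups of the same deposited scale, were called without any 1 array. Of further unnamed probe sets, Ghi.6877.1.A1_at stood at 10.16, 9.69 and 9.99 in control and at 1.36 and 1.39 in pH (adjusted p = 4.79e-05). Ghi.4166.1.S1_s_at stood at −2.75, 1.72 and −0.06 in control and at 8.06 and 8.14 in pH (adjusted p = 0.00918), a call lost without pH 1 or pH 2 (adjusted p 0.0541 to 0.0619).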

How the data were processed

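Per the labels, 17 Affymetrix Cotton Genome Arrays were hybridized with RNA of seedlings. The authors deposited MAS5 signal values (intensity on a linear scale, 1 value per probe set and array), and the scaling target is not given in the sources used here. The labels mention Cy3 and Cy5 dyes in the protocol but name biotin as the label, and each sample has 1 channel. Low signals were kept without a floor, so log2 values below 0 occur. After the 103 control probe sets were left out, intensities were log2-transformed and quantile-normalized over the 17 arrays. The model of limma 3.58.1 (R 4.3.3, lmFit and eBayes, 1 coefficient per condition) gave moderated tests with 11 residual degrees of freedom, and p-values were adjusted over the 24029 probe sets by Benjamini-Hochberg. Calls needed a fold change of 2 and an adjusted p-value of 0.05. The study's methods name SAM, which was run as an alternative, besides other scalings, fits to the compared groups alone, an offset, a signal filter, a variance trend, a replicate block and leaving out single arrays. The procedure was tested on simulated data with normal noise and no difference in scale or RNA integrity between groups. Changes of each size were planted in 100 probe sets above the median signal, against 5318 probe sets called in the data. The rates may therefore not hold for the data. In the simulation limma recovered 88 of 100 changes of 3 log2 units and 47 of 100 of 1.5 log2 units in pH against control. It made 7 false calls among 24029 probe sets. SAM recovered 24 and 0 of these changes, with 3 false calls.

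The array annotation gave a gene to 743 probe sets, 46 of them with several genes. Of the 697 with 1 gene, all were found in RefSeq's gene table and 324 had a gene symbol other than a locus number. The study's tables named a further 524 by similarity. No genome of the array was used, so positions are not given. Primers were read from the study's primer table. Gene lists, members and tests were chosen with earlier results of these data known, and lists were completed after the names were seen. Probe sets were described by a fixed rule: up to 15 named probe sets in each direction, by size of change, that were called, did not overlap between groups and had a signal above the median, the 5 smallest adjusted p-values of each list, those in the study's text or primers, the 8 largest in each direction of the ABA and mannitol contrasts, and the 2 largest of any name. Of the 86 described, 7 lay outside this rule and were chosen after their values were seen, as other probe sets of described genes or for NHX1 and WRKY71.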

Additional observations from a re-analysis of the deposited data

Results flagged for a closer look

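The Affymetrix control probe sets, which enter none of the comparisons, differed between the groups in part. The log2 ratio of the G. hirsutum actin 3′ to the 5′ control probe set was 4.45 on the lower of the 2 pH arrays and 3.05 on the highest control array. The G. raimondii actin ratio overlapped between the groups, at 2.12 on the lower pH array and 2.39 on the highest control array. The same ratio for ubq11, a polyubiquitin, was 3.56 on the lower pH array and 2.17 on the highest control array. On the ABA arrays, which share the scale of the pH arrays, the G. hirsutum actin ratio was 4.46 to 5.31, and on the mannitol arrays it was 2.85 to 3.97. The part of these ratios in the differences between pH and control was not tested.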

How the results depend on the processing

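The deposited scale mattered most. With no rescaling, 13033 probe sets were up-regulated and 80 down-regulated, the median difference of all probe sets was 2.11, and the differences of FLA4 (0.058), RCA1 (0.16), GAI2 (1.03), the KCS38 probe sets that did not pass (1.67 and 1.11), the second FatB1 probe set (1.60), SMT2-1 (0.82), POX10 (0.29), DHAR1 (0.30), ERD10 (1.09) and PEPC1 (1.07) turned positive. Relative to that median each stayed below. Median centring moved the median to −0.11. The share of up-regulated among called probe sets was 52.8%, and it was 48.3% with median centring and 61.5% with trimmed-mean scaling. SAM called 4310 probe sets down-regulated. The EXPA4 probe set that did not pass (GhiAffx.26845.1.S1_at) lay between −0.069, without control 3, and 0.44, without control 1, when 1 array was left out. Leaving out 1 array gave 1488 to 3237 up-regulated and 1217 to 2899 down-regulated probe sets, 245 to 1618 between pH and ABA, and 43 to 361 between pH and mannitol. The 966 probe sets between pH and ABA became 17 with no rescaling, 579 with median centring, 379 with normalization and fit of the compared groups, 416 with the fit to them alone, 63 with SAM, and 2679 at an unadjusted p-value. The 135 between pH and mannitol became 15 with no rescaling, 80 with median centring, 275 with the fit to the compared groups alone, 264 with an offset of 32, 259 with a variance trend, and 1502 at an unadjusted p-value. Without NaCl 1, NaCl 2 and cold 3 together, chosen after seeing the data, these counts were 2226 and 595, with 3656 up-regulated and 3655 down-regulated in pH. NaCl 1 had a trimmed mean intensity of 18.5, with 13% of signals under 1. NaCl 2 correlated most closely with cold 2 (r = 0.941), and cold 3 had a G. hirsutum actin 3′ to 5′ log2 ratio of 7.22. Same-numbered deviations of pH and control arrays correlated at −0.07 and −0.06. With 2 pH arrays these deviations mirror each other, so the values cannot decide whether array numbers pair the samples. Over all groups the mean correlation was 0.008 for the same number and −0.004 for different numbers. With the replicate number as a block, 2761 probe sets were up-regulated, 2403 down-regulated, 875 differed between pH and ABA and 80 between pH and mannitol. Of the 77 described probe sets called in pH, 51 were called whichever 1 array was left out, and 26 were lost without pH 1 or pH 2. With 2 pH arrays, 1 array often decided a call.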
